A study of Mus musculus with 8 samples.

Results

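The phagocyte NADPH oxidase is represented here by 5 genes, Cybb, Cyba, Ncf1, Ncf4 and Rac2, which were picked by name out of the 55414 gene identifiers of a read count table. All 5 were found, each as 1 identifier, and all 5 passed the filter on low counts. The cells were wild-type iBMDM, a mouse macrophage line made by immortalizing macrophages grown out of bone marrow. In 4 groups of 2 libraries they received 5 μM disulfiram (DSF, a drug against alcohol dependence) followed by 1 μg/ml lipopolysaccharide (LPS, the bacterial ligand of TLR4), named DSF+LPS, or DSF followed by water, or the solvent DMSO followed by LPS, or DMSO followed by water, the control. DSF or DMSO was given for 0.5 h before LPS or water was added for 4 h. The question stated for the series is whether the drug blocks what LPS does through TLR4. Libraries of a group are numbered 1 and 2, with no word on separate cultures, and p-values therefore reflect the spread between these libraries alone, which may be technical.

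The oxidase makes superoxide from oxygen with electrons taken from NADPH, and it serves phagocytes in killing microbes. Its catalytic core sits in the membrane as a pair of proteins, gp91phox (Cybb) and p22phox (Cyba). In resting cells the organizer p47phox (Ncf1) and p40phox (Ncf4) wait in the cytosol, and they join the core together with a GTP-bound Rac protein when the cell is stimulated. Loss of gp91phox, p22phox, p47phox or p40phox underlies chronic granulomatous disease in humans. All values below are transcript levels, and neither protein nor superoxide was measured here.

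Library totals ran from 17822041 to 21694922 counts. Between 23416 and 25081 genes had at least 1 count in the libraries with DSF, and between 19779 and 20324 in those without it. A set of 7 macrophage markers (Adgre1, Csf1r, Cd68, Lyz2, Itgam, Mertk, Fcgr1) summed to between 1809 and 2152 CPM (counts per 1000000 of library size) in all libraries, whereas none of the lists of neutrophil, dendritic cell, lymphocyte, fibroblast or epithelial and endothelial markers summed to more than 6.04 CPM in a library. The 7 macrophage markers did not move together. With DSF+LPS against LPS, 4 were lower, Fcgr1 at 0.195, Itgam at 0.602, Csf1r at 0.665 and Adgre1 at 0.675 of the LPS level, 2 were higher, Cd68 at 1.64-fold and the scarce Mertk at 2.38-fold, and Lyz2 did not pass (edgeR adjusted p = 0.884). With DSF against control 3 were lower (Fcgr1, Itgam and Csf1r) and 2 higher (Cd68 and Lyz2), and with LPS against control 3 were higher (Itgam, Lyz2 and Adgre1). Over all genes tested, 33.7% were higher and 31.6% lower at an adjusted p under 0.05 with DSF+LPS against LPS. The shares were 31.0% and 27.1% with DSF, and 15.2% and 13.8% with LPS, against control. With 7 genes the marker counts are near those shares. The part of the macrophage markers in the oxidase results was not tested. The neutrophil marker S100a9 and the T cell genes Cd3e and Cd3g were at 0 in every library.

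LPS raised 4 of the 5 oxidase genes, and with DSF given first 4 of the 5 were lower than with LPS alone. The change in Cybb exceeded that in the other members in both comparisons. Of all 16304 genes tested, 29.0% were called for LPS with control (15.2% higher and 13.8% lower), and 65.3% for DSF+LPS with LPS (33.7% higher and 31.6% lower), where called means a Benjamini-Hochberg adjusted p under 0.05 in edgeR. The median log2 fold change of the 5 genes was 0.62 for LPS with control and -1.37 for DSF+LPS with LPS, beside medians of 0.02 and 0.04 over all genes tested. In these bulk samples, fewer cells of a type and less RNA per cell cannot be told apart.

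**Figure D1:**
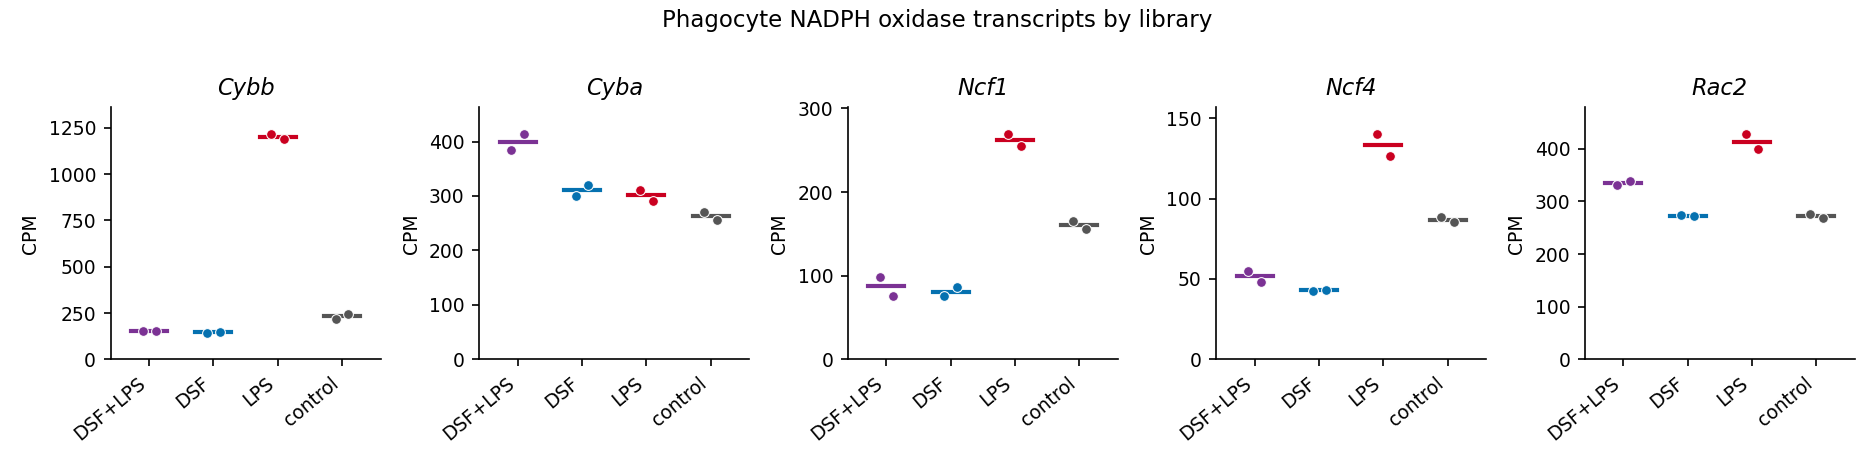
Level of each oxidase gene in CPM (vertical axis, starting at 0) in the 2 libraries of each group (points), with the group mean as a bar. Cybb stood at 1214 and 1189 CPM in the LPS libraries and at no more than 245 CPM in the other 6, while Cyba was highest with DSF+LPS.

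Cybb encodes gp91phox, the flavocytochrome that carries electrons across the membrane. Its level was 152 and 155 CPM in the DSF+LPS libraries, 143 and 149.8 CPM in the DSF libraries, 1214 and 1189 CPM in the LPS libraries, and 219 and 245 CPM in the control libraries. The LPS libraries were far above all others, and control lay above both groups with the drug without overlap. LPS raised Cybb 5.17-fold over control (log2 fold change 2.37, SE 0.07, edgeR quasi-likelihood test, Benjamini-Hochberg adjusted p = 2.18e-12), a rise that 447 of the 16304 genes tested equalled or exceeded, Cybb included. With DSF+LPS it fell to 0.128 of the LPS level (log2 fold change -2.97, SE 0.07, adjusted p = 2.86e-13), and 172 genes, or 1.05% of those tested, fell at least as far.

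The LPS response of Cybb was not detected in the presence of the drug. DSF+LPS with DSF gave a log2 fold change of 0.07 (95% interval -0.08 to 0.21, edgeR adjusted p = 0.588), or -0.04 when libraries were scaled by their totals alone. The difference between the LPS response with the drug and the response without it, tested as an interaction, was -2.30 (SE 0.10, adjusted p = 9.20e-10). Without LPS the drug also lowered Cybb, to 0.630 of control (adjusted p = 1.07e-06). DSF+LPS left it at 0.659 of control (adjusted p = 2.29e-06). The order of levels was therefore LPS, control, DSF+LPS and DSF, where the last pair did not pass the test.

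The Cybb promoter is shown because this gene moved most, and that of Cyba because its product is the obligate partner of gp91phox in the membrane. RefSeq sequences on assembly GRCm38.p6 were matched by symbol for 3 members (Cybb, Cyba and Ncf1), while the submitters' processing notes name GRCm39. Each window runs from 250 bases before the annotated start of the gene to 30 bases from it, 280 bases in all, on the minus strand at chrX:9469295-9469574 for Cybb and chr8:122432911-122433190 for Cyba. Capitals mark matches, on either strand, to GAGGAA, a core bound by the myeloid factor PU.1, and to GGAA followed by any 2 bases and GAAA, a composite element for PU.1 with an interferon regulatory factor.
Cybb: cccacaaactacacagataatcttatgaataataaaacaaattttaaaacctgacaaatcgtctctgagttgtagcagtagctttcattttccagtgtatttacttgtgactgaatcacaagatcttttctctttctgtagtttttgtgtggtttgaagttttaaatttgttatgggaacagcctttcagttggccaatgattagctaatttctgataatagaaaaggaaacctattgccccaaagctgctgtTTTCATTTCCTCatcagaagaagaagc
Cyba: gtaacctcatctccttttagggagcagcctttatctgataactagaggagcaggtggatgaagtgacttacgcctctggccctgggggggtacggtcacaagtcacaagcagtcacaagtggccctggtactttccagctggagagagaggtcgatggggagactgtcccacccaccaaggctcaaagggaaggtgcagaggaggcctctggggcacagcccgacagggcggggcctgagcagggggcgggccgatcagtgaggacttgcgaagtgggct

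In Cybb the 2 motifs overlapped and were read on the opposite strand, the composite element at bases 4 to 13 from the start and the PU.1 core at bases 10 to 15. Of 32851 windows of the same length in the table, 26.0% held GAGGAA and 2.55% held the composite element. Neither motif was in the windows of Cyba or Ncf1, which says only that these letters are not in these windows. A match describes the sequence, and binding was not measured here.

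Cyba encodes p22phox, which stabilizes gp91phox and docks p47phox. It had 385 and 413 CPM with DSF+LPS, 299 and 321 CPM with DSF, 312 and 291 CPM with LPS, and 271 and 256 CPM in control. The DSF+LPS libraries lay above all others, control lay below all others, and the DSF and LPS libraries overlapped. Cyba was the only member that was higher, not lower, with DSF+LPS than with LPS, at 1.32-fold (log2 fold change 0.40, SE 0.07, edgeR adjusted p = 0.000135). It also rose 1.51-fold over control with DSF+LPS (adjusted p = 3.19e-06) and 1.29-fold over DSF (adjusted p = 0.00476). The call over DSF was lost without DSF replicate 1 (adjusted p = 0.0595).

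Changes in Cyba with a single agent were small. DSF alone gave 1.18-fold (edgeR adjusted p = 0.00995), a call that was lost without control replicate 2 (adjusted p = 0.126), without DSF replicate 2 (0.139) and with library totals alone as the scale (0.101). LPS alone gave 1.14-fold with a 95% interval of 1.03 to 1.27 and missed the threshold (adjusted p = 0.0514), which it passed in 6 of 15 alternative settings. The interaction was 0.17 on the log2 scale (95% interval -0.04 to 0.38, adjusted p = 0.264).

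Ncf1 encodes p47phox, the organizer that carries the cytosolic subunits to the membrane once it is phosphorylated. It had 98.9 and 76.2 CPM with DSF+LPS, 75.3 and 86.3 CPM with DSF, 269 and 256 CPM with LPS, and 165 and 156 CPM in control. Both groups with the drug lay below control and overlapped each other, and LPS lay above all. LPS raised Ncf1 1.63-fold over control (log2 fold change 0.71, SE 0.10, edgeR adjusted p = 8.13e-05). DSF+LPS brought it to 0.334 of the LPS level (log2 fold change -1.58, SE 0.11, adjusted p = 8.05e-09), and DSF alone to 0.503 of control (adjusted p = 1.63e-06). In the annotation GENCODE M21, 408 exon bases of Ncf1, or 11.1% of its exons, overlap Gtf2ird2 on the opposite strand, and reads there cannot be assigned without strand. Gtf2ird2 itself was at 15.9 to 21.8 CPM in all libraries.

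Ncf4 encodes p40phox, which binds a phosphoinositide of the phagosome membrane and holds the complex there. It had 55.3 and 48.1 CPM with DSF+LPS, 42.7 and 43.3 CPM with DSF, 139.9 and 126 CPM with LPS, and 88.5 and 85.3 CPM in control. No pair of groups overlapped. LPS raised it 1.53-fold (log2 fold change 0.62, SE 0.09, edgeR adjusted p = 5.24e-05), DSF+LPS brought it to 0.388 of the LPS level (log2 fold change -1.36, SE 0.09, adjusted p = 5.57e-09), and DSF alone to 0.495 of control (adjusted p = 2.20e-07). Ncf4 and Ncf1 had the most similar profiles of any pair of members, with a root mean square difference of 0.106 between their centred log2 levels over the 8 libraries, while the other pairs ran from 0.278 (Cyba and Rac2) to 1.32 (Cybb and Cyba).

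For these cytosolic subunits the LPS response under the drug did not pass the test. DSF+LPS with DSF gave log2 fold changes of 0.12 for Ncf1 (95% interval -0.11 to 0.34, edgeR adjusted p = 0.535) and 0.27 for Ncf4 (0.07 to 0.46, adjusted p = 0.0712). Without DSF+LPS replicate 2 they were 0.32 and 0.39 and passed (adjusted p = 0.0203 and 0.00810), and without DSF+LPS replicate 1 they were -0.09 and 0.15. The interaction was -0.59 for Ncf1 (SE 0.15, adjusted p = 0.0110), a call lost without control replicate 2 (adjusted p = 0.0538) or DSF replicate 2 (0.0707). It was -0.35 for Ncf4 (95% interval -0.62 to -0.08, adjusted p = 0.0624) and passed at -0.44 without DSF+LPS replicate 1 (adjusted p = 0.00987).

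Rac2 encodes the Rac GTPase of blood cells that switches the assembled oxidase on. It had 332 and 338 CPM with DSF+LPS, 274 and 272 CPM with DSF, 427 and 399 CPM with LPS, and 275 and 268 CPM in control. The LPS libraries were highest, DSF+LPS came next, and DSF and control overlapped. LPS raised Rac2 1.52-fold (log2 fold change 0.60, SE 0.06, edgeR adjusted p = 2.75e-06), and DSF+LPS left it at 0.811 of the LPS level (log2 fold change -0.30, SE 0.06, adjusted p = 0.000656).

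No change of Rac2 with DSF alone was detected. It was at 1.00-fold of control (95% interval 0.914 to 1.10, edgeR adjusted p = 0.946), and its direction turned between settings. DSF+LPS was 1.23-fold above DSF (adjusted p = 0.00851), a call lost without DSF replicate 1 or with only these groups fitted (adjusted p = 0.0588 both times). It was also 1.23-fold above control (adjusted p = 0.000693), but at a log2 fold change of 0.09 with library totals alone as the scale (adjusted p = 0.1855), against 0.30 in the fit with scaling. The interaction of -0.31 (SE 0.09, adjusted p = 0.0242) did not pass without control replicate 1 or 2, DSF replicate 1 or 2, or LPS replicate 1 (adjusted p from 0.0688 to 0.127).

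**Figure D2:**
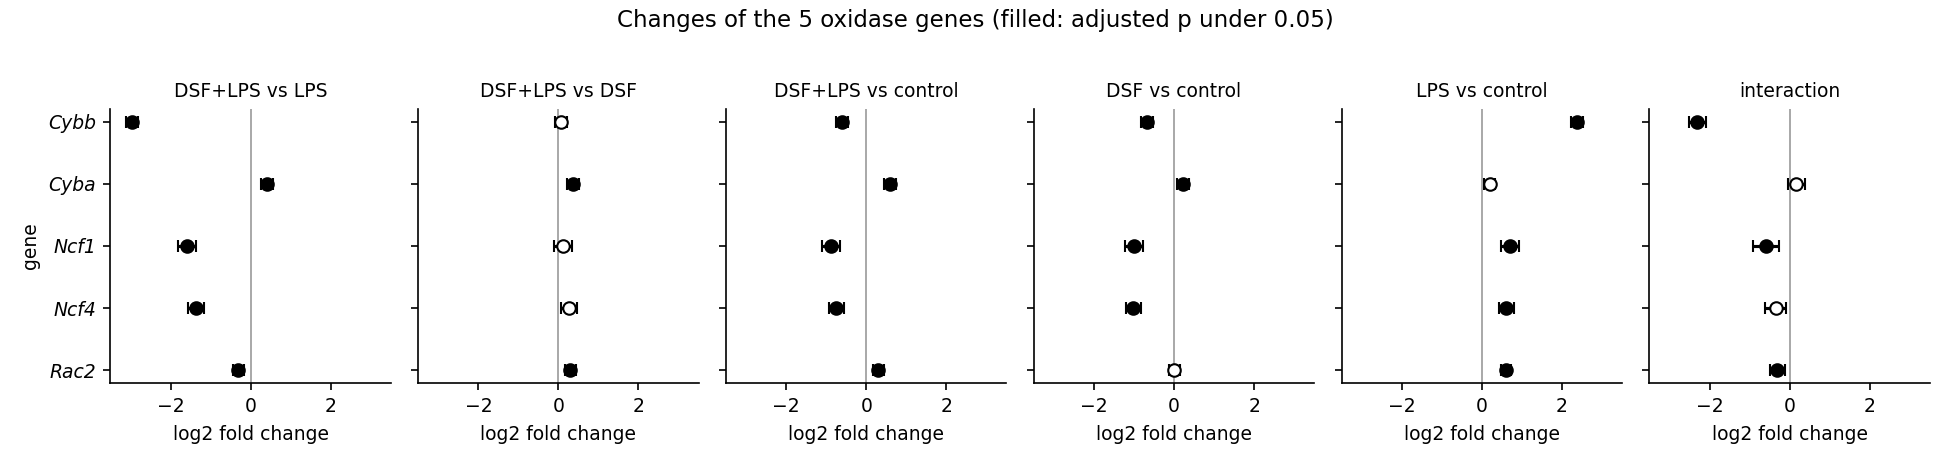
Log2 fold change of each oxidase gene (horizontal axis) in 6 comparisons, with 95% intervals as bars; filled points passed an adjusted p under 0.05. The interaction is the LPS response with DSF minus that without it, and Cybb lies at -2.97 for DSF+LPS with LPS and at 0.07 for DSF+LPS with DSF.

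Counted over the 5 genes, DSF alone lowered 3 (Cybb, Ncf1 and Ncf4) and raised 1 (Cyba), while 58.1% of all genes tested were called for DSF with control (31.0% higher and 27.1% lower). DSF+LPS with control had 3 lower (Cybb, Ncf1 and Ncf4) and 2 higher (Cyba and Rac2), where 65.2% of all genes were called (34.3% higher and 30.9% lower). DSF+LPS with DSF had 2 higher (Cyba and Rac2) and 0 lower, where 12.1% of all genes were called (5.52% higher and 6.53% lower). This count ran from 0 to 4 with single libraries left out, at 0 without DSF replicate 1 and 4 without DSF+LPS replicate 2. The interaction was negative and called for 3 (Cybb, Ncf1 and Rac2), where 19.7% of all genes were called (7.58% higher and 12.2% lower), and it was called for 1 member, Cybb, without control replicate 2 or DSF replicate 2. Comparisons that share a group also share its libraries.

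**Figure D3:**
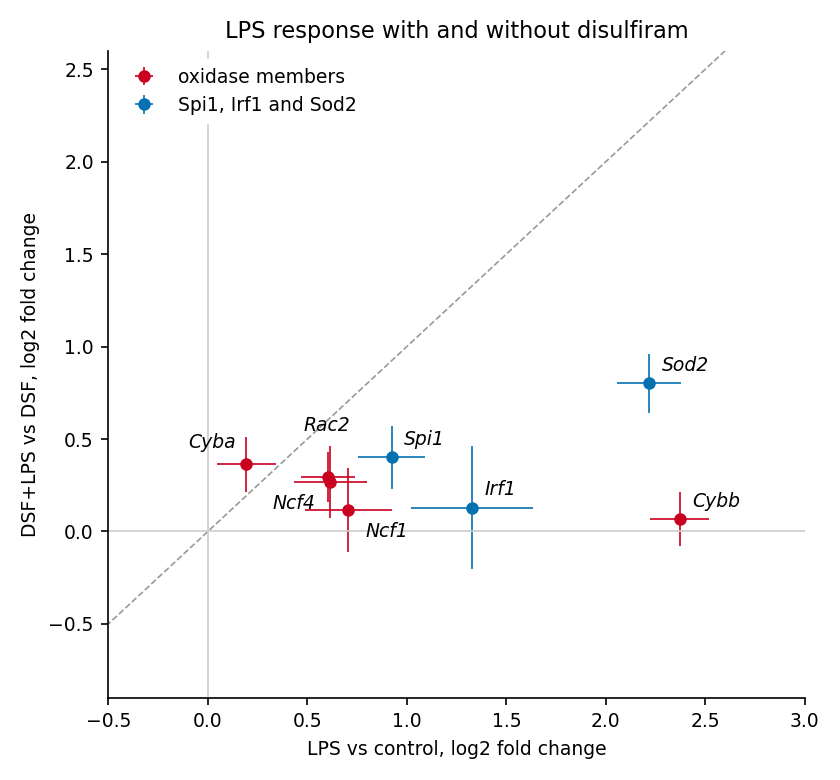
LPS response without the drug (LPS with control, horizontal axis) against that with it (DSF+LPS with DSF, vertical axis), both as log2 fold changes with 95% intervals; the dashed line marks equal responses, and Spi1, Irf1 and Sod2 are added in blue. Cybb lies at 2.37 and 0.07, and Cyba, at 0.19 and 0.36, is the only member above the line. The 3 genes in blue each had a called negative interaction and do not stand for their lists. Of 7 transcription factors tested, 2 had a called negative interaction and 5 had none called. Of 6 superoxide and peroxide genes tested, 1 was called negative and 3 positive, beside 12.2% and 7.58% of all genes.

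The transcripts of the membrane pair shifted against each other. Per kilobase of annotated exon, Cyba was the highest member in every group, at 384 ± 19.0 CPM per kb with DSF+LPS, 299 ± 14.7 with DSF, 290.1 ± 14.2 with LPS and 254 ± 10.2 in control (SD, n = 2 each). Cybb stood at 26.4 ± 0.324 CPM per kb with DSF+LPS, 25.2 ± 0.849 with DSF and 207 ± 3.08 with LPS (SD, n = 2 each), and at 37.8 and 42.2 CPM per kb in the control libraries. The ratio of Cybb to Cyba, both per kb, was 0.0706 and 0.0670 in the DSF+LPS libraries, 0.0853 and 0.0835 in the DSF libraries, 0.696 and 0.731 in the LPS libraries, and 0.145 and 0.171 in the control libraries, so that no pair of groups overlapped. Cybb made up 4.65% ± 0.0571 of the summed length-scaled transcripts of the 5 genes with DSF+LPS, 5.54% ± 0.0257 with DSF, 27.0% ± 0.687 with LPS and 8.55% ± 0.886 in control. The share of Rac2 stayed between 17.3% and 19.9% in all libraries. Exon lengths include every annotated transcript, and these ratios were not tested.

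**Figure D4:**
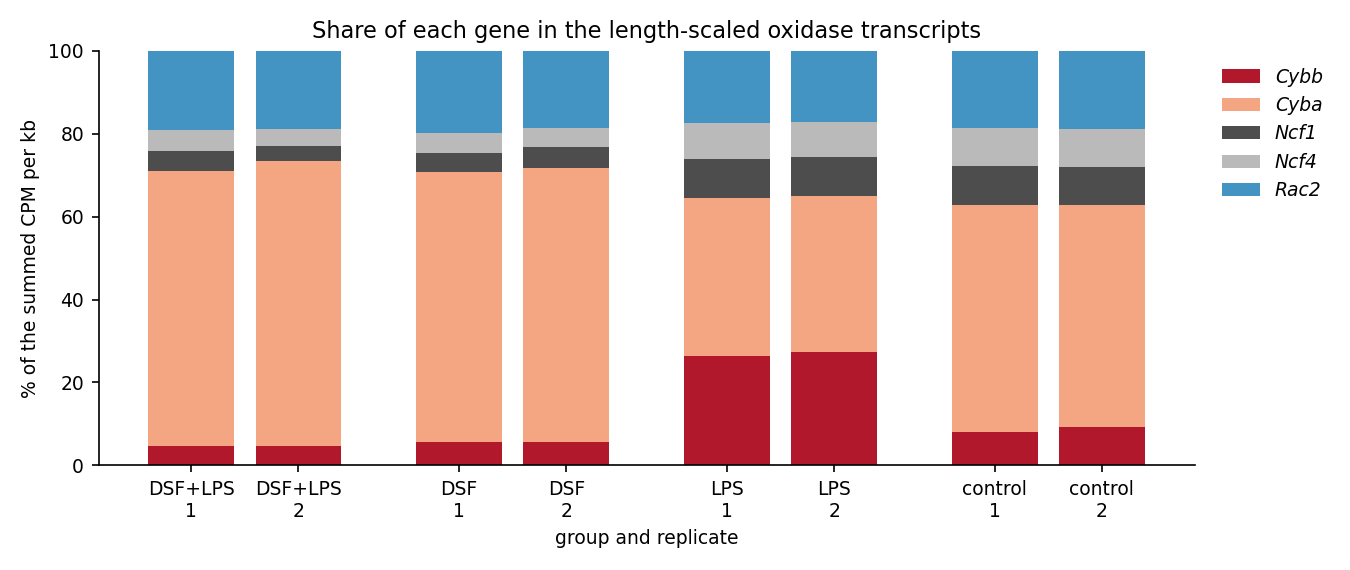
Share of each oxidase gene in the summed CPM per kb of the 5 genes (vertical axis, percent) in each of the 8 libraries (horizontal axis). Cybb takes 26.5% and 27.4% in the LPS libraries and at most 9.18% in the other 6.

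A list of 5 other oxidase genes held the widely expressed Rac and proteins that act on the complex. Of these, 2 rose and 2 fell with DSF+LPS against LPS, 1 rose and 2 fell with DSF against control, and 0 rose and 2 fell with LPS against control. Over all genes tested, 65.3%, 58.1% and 29.0% were called in these comparisons in the same order, and with 5 genes the counts are near those shares. Nrros, a negative regulator that promotes the breakdown of gp91phox, had 18.9 and 22.5 CPM with DSF+LPS, 40.4 and 34.3 CPM with DSF, 179 and 162 CPM with LPS, and 181 and 183 CPM in control. It fell to 0.121 of the LPS level with DSF+LPS (log2 fold change -3.04, SE 0.11, edgeR adjusted p = 6.75e-12) and to 0.206 of control with DSF (adjusted p = 1.40e-10), while its log2 fold change of -0.10 with LPS alone missed the threshold (adjusted p = 0.491). Cybc1, also called EROS, a chaperone that gp91phox needs to mature, had 94.7 and 104 CPM with DSF+LPS, 105 and 98.6 CPM with DSF, 44.7 and 41.4 CPM with LPS, and 56.0 and 56.1 CPM in control. It rose 2.30-fold with DSF+LPS over LPS (adjusted p = 1.35e-08) and 1.82-fold with DSF over control (adjusted p = 5.59e-07), and fell to 0.768 of control with LPS (adjusted p = 0.00323). Nrros and Cybc1 thus differed between the groups with and without the drug, with no overlap.

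Rac1, which can take the place of Rac2 in the oxidase, did not pass in any of the 6 comparisons, with group means between 309 and 343 CPM. Rap1a, a small GTPase found with the flavocytochrome, fell to 0.469 of the LPS level with DSF+LPS (edgeR adjusted p = 1.28e-06). Hvcn1, the proton channel that balances the charge moved by the oxidase, was low in all libraries. It had 2.72 and 2.78 CPM with DSF+LPS, 2.22 and 2.17 CPM with DSF, 0.981 and 0.621 CPM with LPS, and 2.33 and 1.92 CPM in control. DSF+LPS differed from LPS (edgeR adjusted p = 0.00042). LPS lowered Hvcn1 to 0.380 of control (adjusted p = 0.00745), and DSF against control did not pass (adjusted p = 0.898).

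**Figure D5:**
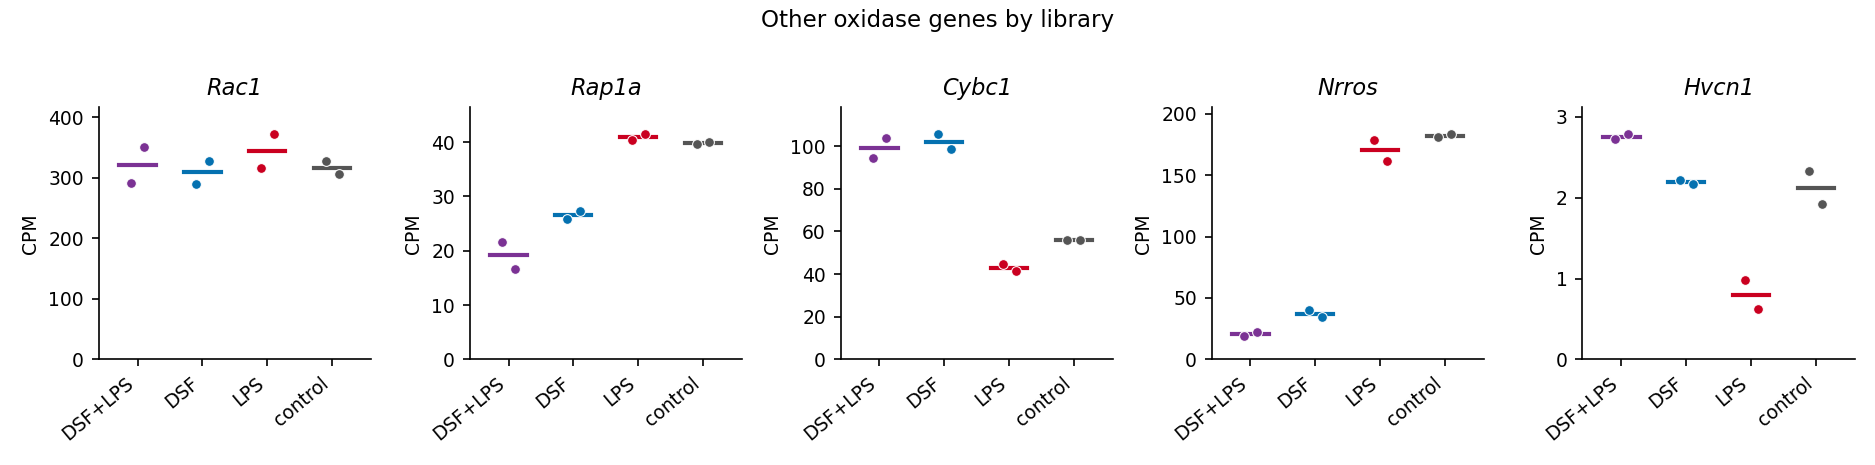
Levels in CPM (vertical axes, starting at 0) of the 5 other oxidase genes in the 2 libraries of each group (points), with the group mean as a bar. Nrros is at 40.4 CPM or less in the 4 libraries with DSF and at 161.7 CPM or more in the 4 without.

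Of 12 oxidase-directed kinases and lipid enzymes, 10 fell and 1 rose with DSF, and 9 fell and 1 rose with DSF+LPS against LPS. Over all genes tested, 27.1% were lower and 31.0% higher with DSF, and 31.6% were lower and 33.7% higher with DSF+LPS against LPS. Their median log2 fold changes were -0.66 and -0.90, beside 0.05 and 0.04 over all genes tested. Prkcd, a protein kinase C that phosphorylates p47phox, had 78.2 and 77.3 CPM with DSF+LPS, 80.7 and 75.6 CPM with DSF, 211 and 209 CPM with LPS, and 142 and 137 CPM in control. It rose 1.51-fold with LPS (edgeR adjusted p = 9.50e-06) and fell to 0.370 of the LPS level with DSF+LPS (adjusted p = 3.42e-10), with an interaction of -0.60 (SE 0.10, adjusted p = 0.000593). Pak2, a kinase activated by Rac, fell to 0.433 and Pik3cd, a phosphoinositide 3-kinase of leukocytes, to 0.417 of the LPS level. With LPS alone 2 of the 12 rose (Prkcd and Pak2) and 4 fell, Mapk14 to 0.640 of control. Over all genes tested, 15.2% were higher and 13.8% lower with LPS alone.

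A list of 11 regulators of Rac had 10 genes that passed the filter. With DSF+LPS 3 were lower and 1 higher than with LPS, and with DSF 3 were lower and 1 higher than in control. In each comparison, 4 of 10 called is a smaller share than the 65.3% and 58.1% called over all genes tested. The list medians were -0.04 and -0.17 on the log2 scale, beside 0.04 and 0.05 over all genes, and the list as a whole was not tested. Among its called genes, Vav1, a Rac exchange factor of blood cells, fell to 0.665 of the LPS level (edgeR adjusted p = 4.15e-06) and Prex1, another exchange factor, to 0.697 (adjusted p = 0.000234). Arhgap25, which turns Rac off in phagocytes, rose 1.69-fold (adjusted p = 8.53e-05).

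Of 9 transcription factors known to act on the Cybb promoter in myeloid cells, 7 passed the filter. With LPS 4 rose and 1 fell, and with DSF+LPS 4 were lower and 3 higher than with LPS. Over all genes tested, 15.2% were higher and 13.8% lower with LPS. With DSF+LPS against LPS, 31.6% were lower and 33.7% higher over all genes, and calls in the list also ran in both directions. There all 7 of the list were called, beside 65.3% of all genes. Spi1, which encodes PU.1, had 221 and 255 CPM with DSF+LPS, 182 and 179 CPM with DSF, 487 and 438 CPM with LPS, and 251 and 237 CPM in control. It rose 1.90-fold with LPS (edgeR adjusted p = 3.40e-07), and fell to 0.514 of the LPS level with DSF+LPS (adjusted p = 8.14e-08), with an interaction of -0.52 (SE 0.11, adjusted p = 0.00403). Spi1 was also 1.32-fold higher with DSF+LPS than with DSF (adjusted p = 0.00587). The interferon regulatory factor Irf1 rose 2.51-fold with LPS (adjusted p = 3.94e-06) and fell to 0.316 of the LPS level with DSF+LPS (adjusted p = 1.63e-07). The 3 factors higher with DSF+LPS than with LPS were Cebpb at 2.24-fold (adjusted p = 2.87e-06), Cux1 at 1.59-fold and the scarce Cebpe at 3.03-fold. Cebpb also rose 2.00-fold with LPS over control (adjusted p = 5.17e-05), and to 2.94-fold of control with DSF (adjusted p = 2.69e-07).

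Enzymes that remove superoxide and peroxide were listed as 8 genes, of which 6 were tested. With DSF 4 rose and 2 fell, and with DSF+LPS 4 were higher and 2 lower than with LPS, where 58.1% and 65.3% of all genes were called. Sod2, the mitochondrial superoxide dismutase, had 238 and 260.4 CPM with DSF+LPS, 134 and 152 CPM with DSF, 783 and 779 CPM with LPS, and 165 and 171 CPM in control. It rose 4.65-fold with LPS (edgeR adjusted p = 1.11e-11), beside 5.17-fold for Cybb, and 1.74-fold with DSF+LPS over DSF (adjusted p = 9.28e-06). Its interaction was -1.42 (SE 0.10, adjusted p = 2.30e-07). Sod1, Cat and Gpx1, which encode the cytosolic superoxide dismutase, catalase and a glutathione peroxidase, rose 1.63-fold, 1.97-fold and 1.33-fold with DSF over control. Sod2 itself fell to 0.851 of control with DSF (adjusted p = 0.0143), and Gpx3, a secreted glutathione peroxidase found at under 1 CPM in both groups, to 0.270 (adjusted p = 0.00789). Sod1 rose 2.21-fold with DSF+LPS over LPS (adjusted p = 3.32e-08). The 2 lower genes there were Sod2, at 0.319 of the LPS level (adjusted p = 1.12e-10), and Gpx3, at 0.0709 (adjusted p = 3.19e-06).

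The genes closest to a member were sought among 8619 others with a mean of at least 10 CPM. Predicted genes with Gm or Rik names were left out. Closeness was the root mean square difference of centred log2(CPM + 1) over the 8 libraries. Nearest to Cybb were Jade2, Fcgr2b and Xaf1, at differences of 0.122, 0.132 and 0.146. Fcgr2b, the inhibitory receptor for the Fc part of IgG, averaged 34.9 ± 3.30 CPM with DSF+LPS, 36.4 ± 2.89 CPM with DSF, 268 ± 17.1 CPM with LPS and 60.3 ± 1.83 CPM in control (SD, n = 2 each). Nearest to Ncf1 was Epsti1 at 0.0755, which was also the second nearest to Ncf4, after Mapre2 at 0.0837. Distances this small describe these 8 libraries and carry no test. Nearest to Cyba was Txn1, the cytosolic thioredoxin, at 0.0468, and nearest to Rac2 was Samd4b at 0.0311.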

How the data were processed

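The authors deposited read counts, whole numbers per Ensembl gene without normalization, as 1 table of 8 libraries. The submitters' processing notes list GRCm39 and DESeq2 with no role stated. Aligner, counter, annotation and strand handling were not given in the sources used here. Of 55414 identifiers, 52081 matched a symbol. Exon lengths came from GENCODE M21 (GRCm38).

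All 8 libraries entered 1 fit in edgeR 4.0.16 (R 4.3.3) with a mean per group, TMM scaling and filterByExpr (minimum count 10, minimum total 15), which left 16304 genes. Contrasts were tested by quasi-likelihood F test with Benjamini-Hochberg adjustment over all genes, and called at adjusted p under 0.05. SE is |log2 fold change| over the square root of F, and 95% intervals were built on it. CPM are counts per 1000000 of TMM-scaled library size, except that marker sums use plain totals. The code was tested on simulated data.

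Members and gene lists were chosen with earlier results of these data known. Some listed genes are not reported here and were left out of the list counts. All members and the 5 other oxidase genes could be named, as could, from every other list, up to 3 called genes per comparison with the smallest adjusted p, and the 3 genes most like each member. Gtf2ird2 was named for its overlap with Ncf1. The macrophage markers, S100a9, Cd3e, Cd3g, Duox2, Gpx3 with the drug and Sod2 under DSF were named after their values were seen. So were the transcription factors higher with DSF+LPS than with LPS. Alternatives were median-ratio size factors, library totals alone, no filter, a filter of 1 CPM, DESeq2 1.42.0, only the compared groups, a replicate block and leaving out each library.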

Additional observations from a re-analysis of the deposited data

Results flagged for a closer look

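The LPS response of 3 members differed between cells with and without DSF, by the interaction term of the edgeR fit. It was -2.30 on the log2 scale for Cybb (adjusted p = 9.20e-10), with responses of 0.07 with the drug and 2.37 without it. It was -0.59 for Ncf1 (adjusted p = 0.0110), with responses of 0.12 and 0.71. It was -0.31 for Rac2 (adjusted p = 0.0242), with responses of 0.30 and 0.60. The value for Cybb ran from -2.39 to -2.23 when single libraries were left out, and its call held each time; those for Ncf1 and Rac2 ran from -0.78 to -0.37 and from -0.36 to -0.26, and lost the call without 2 and 5 of the 8 libraries.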

How the results depend on the processing

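In the 5 comparisons that called Cybb, its direction and call held under every alternative run. Direction turned only for values that had not passed: Rac2 for DSF with control gave -0.098 with library totals alone, -0.031 without the filter and -0.027 to 0.015 with single libraries left out, Cybb for DSF+LPS with DSF gave -0.038 with library totals alone, and Ncf1 for DSF+LPS with DSF ran from -0.092 to 0.32 with single libraries left out. With single libraries left out, genes called ran from 3146 to 5545 for LPS with control (4731 with all), from 399 to 2407 for DSF+LPS with DSF (1965) and from 2003 to 3797 for the interaction (3217), and members called ran from 0 to 4 for DSF+LPS with DSF (2) and from 1 to 4 for the interaction (3). Where a left-out library leaves 1 in its group, that library is assumed to vary like the other groups. With only the compared groups fitted, DSF+LPS with DSF had 524 genes and 1 member called. Library totals alone moved the share of higher calls to 30.0% from 52.5% for LPS with control, to 17.5% from 45.8% for DSF+LPS with DSF and to 40.9% from 52.7% for DSF+LPS with control. The cause of these shifts was not tested.

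The labels link same-numbered libraries by a number alone, and the correlations of their deviations ran from -0.119 to 0.0531. Whether they shared a culture or batch is not known. The replicate block changed no member call, with 4733 genes called for LPS with control and 2129 for DSF+LPS with DSF. A crossed pairing of DSF+LPS with DSF, chosen after seeing the data, called 2061 genes and 2 members. With 2 libraries a group, small differences may go undetected.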

Other observations

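Of 9 genes for other NADPH oxidases and their partners 6 were tested, all at low counts. Nox1, the oxidase of the colon epithelium, had 28 and 12 counts with DSF+LPS, 17 and 14 counts with DSF, 138 and 144 counts with LPS, and 1 and 9 counts in control. It rose with LPS (log2 fold change 4.83, SE 0.49, edgeR adjusted p = 2.14e-06) and fell with DSF+LPS against LPS (log2 fold change -2.70, SE 0.40, adjusted p = 3.00e-05). The rise rests on few control counts. The interaction was -4.35 (SE 0.73, adjusted p = 0.000635). At 6.77 and 6.88 CPM its highest libraries were far below Cybb, and per kb of exon Nox1 averaged 2.06 CPM with LPS where Cybb averaged 207.

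Of these 6 tested genes, 5 were called higher and 0 lower with DSF than in control. With DSF+LPS against LPS, 5 were higher and 1, Nox1, was lower. Over all genes tested, 31.0% were higher and 27.1% lower with DSF, and 33.7% higher and 31.6% lower with DSF+LPS against LPS. The list counts include genes that passed the filter only through groups with the drug. Nox3, the oxidase of the inner ear, had 47 and 51 counts with DSF+LPS, 54 and 72 counts with DSF, 2 and 8 counts with LPS, and 10 and 16 counts in control, and rose with DSF (log2 fold change 2.31, SE 0.43, edgeR adjusted p = 0.000356). Duox1, a dual oxidase of thyroid and airway, had 35 and 15 counts with DSF+LPS, 16 and 11 with DSF, and 0 in each LPS and control library, so that it was at least 9.18-fold higher with DSF than in control, taking 3 counts over the control group. Nox4 had 21 counts over the DSF libraries and 0 in control, at least 7.14-fold higher on the same footing. It also had 0 counts in the LPS libraries. Duox2 had 22 and 2 counts with DSF+LPS, 8 and 12 with DSF, 0 in each LPS library, and 0 and 3 in control. Duox1, Nox4 and Duox2 thus passed the filter on low counts only through groups with the drug. That filter fixed their direction in advance, and the bounds describe the counts alone. The list counts therefore cannot be weighed against the shares over all genes. Libraries with DSF also held more genes with any count, as given above, and the part of that in these low counts was not tested.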
